A study of Mus musculus with 18 samples.

Results

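The cell cycle genes described here are 43 genes that carry a cell from DNA replication through division. They were chosen by gene symbol from a fixed list, and all 43 were found among the 55401 genes of the expression tables. The rule uses symbols and no measured value, and the list was drawn up with earlier results of these data known. By role it holds 11 genes of origin licensing and firing, 6 of the replication fork and nucleotide supply, 7 cyclins and cyclin-dependent kinases (CDKs), 2 transcription factors, 8 mitotic kinases, checkpoint and anaphase genes, and 9 genes of the spindle, the kinetochore and chromosome structure.

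Polyadenylated RNA was sequenced from colon, lung and liver of C57BL/6N mice aged 7 weeks. Treated mice had received by mouth 100 mg/kg body weight of RECTAS, a small molecule developed as a corrector of faulty splicing, suspended in 0.5% carboxymethyl cellulose (CMC). Control mice had received 0.5% CMC alone, so every group shares CMC and repeated oral dosing, at an interval of 4 h, with tissue taken 8 h after dosing began. Each of the 6 groups, 1 per tissue and treatment, had 3 libraries, 18 in all, and no genetic change was made. The labels do not say whether libraries came from separate animals or whether 1 animal gave all 3 tissues, so p-values measure the spread between these libraries, which may be technical.

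A dividing cell first licenses its replication origins by loading the MCM helicase, then copies its DNA in S phase under cyclin E and cyclin A with CDK2. Cyclin B with CDK1 drives entry into mitosis, and the anaphase promoting complex ends it by marking cyclin B for destruction. Transcription follows the same order: E2F factors raise the S phase genes, and FOXM1 with the MuvB complex raises the mitotic genes later. In these tissues the colon crypt renews its epithelium without pause, whereas most cells of adult lung and liver rest outside the cycle.

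Expression was given as TPM, a share of all transcripts after division by gene length, so levels of different genes can be compared, but read depth is unknown. Differences were taken after log2(TPM + 1), so changes of low genes appear smaller than they are. They were tested with limma across every gene that reached 1 TPM in 3 or more libraries, and a gene was called at an adjusted p under 0.05. Markers matched the tissue labels: Alb (albumin) was at least 57361 TPM in every liver library, Sftpc (surfactant protein C) at least 28612 TPM in every lung library and Slc26a3 (a colonocyte anion exchanger) at least 171 TPM in every colon library. Liver RNA was visible in some lung libraries, with Alb at 9.07, 292 and 782 TPM under vehicle and 0.810, 28.5 and 334 TPM under RECTAS. In bulk tissue, fewer cycling cells and less RNA per cycling cell cannot be told apart.

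In vehicle colon all 43 genes stood at 1 TPM or more in every library, in lung 41 did, and in liver 17 did, while 18 lay under 1 TPM in all 3 liver libraries. The median of the 43 mean levels was 10.6 TPM in colon, 4.33 TPM in lung and 0.997 TPM in liver. For 33 genes the order was colon, then lung, then liver. For 9 it was lung, then colon, then liver, and for Tk1 alone it was liver, then colon, then lung. Some neighbouring tissues in these orders did not differ beyond their spread: 7 genes between colon and lung, 3 between lung and liver, and Tk1 between colon and liver.

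**Figure D1:**
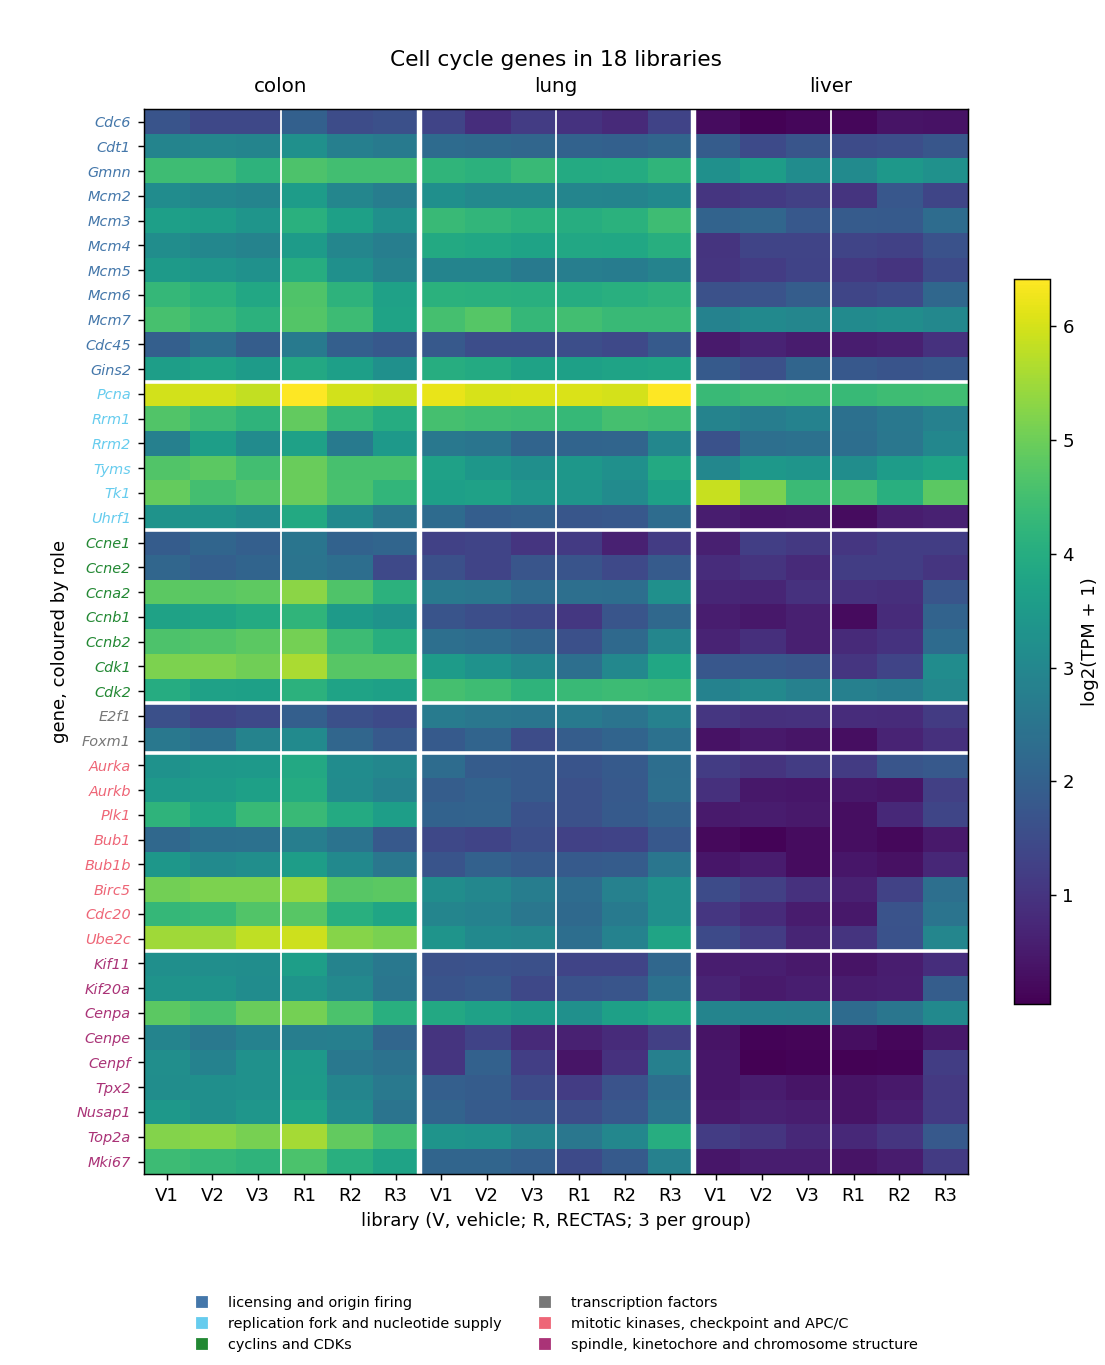
Level of each of the 43 cell cycle genes in each of the 18 libraries as log2(TPM + 1), with genes in rows coloured by role and libraries in columns by tissue and treatment (V, vehicle; R, RECTAS). The mitotic genes stand out in the 6 colon columns, most MCM genes are as strong in lung as in colon, and Tk1 and Pcna are the strongest rows in liver.

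The proliferation marker Mki67, whose protein coats mitotic chromosomes (chr7:135689784-135716361 on GRCm38, minus strand), stood at 20.3, 18.7 and 17.1 TPM in vehicle colon, 3.34, 3.33 and 2.90 TPM in lung and 0.350, 0.460 and 0.460 TPM in liver. Top2a, the topoisomerase that untangles sister chromatids (chr11:98992943-99024189, minus strand), stood at 36.6, 38.2 and 33.5 TPM in colon, 9.22, 8.73 and 6.61 TPM in lung and 1.26, 1.03 and 0.700 TPM in liver. For both genes the 3 tissues formed separate, non-overlapping groups.

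Cdk1, the kinase of mitotic entry (chr10:69335146-69352938, minus strand), stood at 34.5, 35.05 and 31.7 TPM in colon, 10.6, 8.76 and 6.95 TPM in lung and 2.39, 2.5 and 2.28 TPM in liver. Its partner cyclin B1, Ccnb1 (chr13:100778650-100786570, minus strand), stood at 12.0, 12.5 and 14.4 TPM in colon, 2.25, 1.99 and 1.73 TPM in lung and 0.460, 0.370 and 0.510 TPM in liver. Again no library of 1 tissue reached the range of another.

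The S phase genes were spread differently. Pcna, the sliding clamp of the DNA polymerases (chr2:132249162-132253314, minus strand), stood at 62.4, 63.4 and 56.3 TPM in colon, 72.8, 64.6 and 65.9 TPM in lung and 19.7, 21.1 and 20.6 TPM in liver. Mcm2, a subunit of the replicative helicase (chr6:88883474-88898780, minus strand), stood at 7.87, 6.93 and 6.56 TPM in colon, 8.33, 7.18 and 7.30 TPM in lung and 1.02, 1.17 and 1.36 TPM in liver. Colon and lung lay close for Pcna and overlapped for Mcm2, and liver lay below both.

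Ccne1, the cyclin E of S phase entry (chr7:38097984-38107534, minus strand), stood at 2.71, 3.35 and 2.92 TPM in colon, 1.43, 1.55 and 1.05 TPM in lung and 0.510, 1.32 and 1.16 TPM in liver, where lung and liver overlapped. E2f1, which activates S phase genes (chr2:154559407-154569892, minus strand), went the other way, at 2.02, 1.55 and 1.74 TPM in colon, 5.42, 4.98 and 4.69 TPM in lung and 1.06, 0.900 and 0.940 TPM in liver. The 3 lung libraries were the highest 3 of the 9 for E2f1.

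Between vehicle colon and vehicle lung, 32 of the 43 genes were higher in colon past the threshold, against 24.7% of the 16715 genes tested, and 4 were lower, against 51% of all genes. The median difference of the 43 was 1.13 on the log2 scale and that of all genes -0.35. Median ratio scaling moved these to 1.38 and -0.10 and gave 33 higher and 4 lower. The split ran by role. All 8 mitotic kinase, checkpoint and anaphase genes were higher in colon, with differences from 0.89 to 2.48, and so were all 9 spindle, kinetochore and chromosome genes, from 1.09 to 2.23. Of the 11 licensing genes, 4 were higher, 2 were lower and 5 did not pass.

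Ube2c, the ubiquitin-conjugating enzyme of the anaphase promoting complex, had a difference of 2.48 ± 0.20 (SE; limma adjusted p = 2.72e-06), with means of 47.9 TPM in colon and 7.78 TPM in lung. Cyclin B2, Ccnb2, followed at 2.45 ± 0.12 (adjusted p = 8.79e-08), with means of 25.3 and 3.81 TPM. Ccna2, the cyclin A of S phase and early mitosis, had 2.31 ± 0.12 (adjusted p = 1.5e-07), with means of 27.0 and 4.66 TPM. Each of the 3 was higher in all 3 colon libraries than in any lung library.

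The other kinases of mitosis behaved alike. Plk1, which matures the spindle poles, differed by 2.21, Aurkb, which corrects attachments of chromosomes to the spindle, by 1.64, and Aurka, which builds the spindle with its activator Tpx2, by 1.38. Birc5 (survivin, a partner of Aurkb) differed by 2.15 and Cdc20, the activator of the anaphase promoting complex, by 1.64. The spindle checkpoint genes Bub1b and Bub1 had the smaller differences of 1.37 and 0.89.

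Among the spindle and chromosome genes, the kinetochore genes Cenpe and Cenpf differed by 1.76 and 1.69, the motors Kif20a and Kif11 by 1.62 and 1.57, the microtubule-binding gene Nusap1 by 1.43 and Tpx2 by 1.42. Cenpa, the histone H3 variant that marks centromeres, had the smallest difference of this class, 1.09, and was the highest of its class in lung, with a mean of 12.1 TPM. Foxm1, the activator of mitotic genes, was higher in colon by 0.80 and Cdk1 by 1.84.

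The genes higher in lung were of S phase or of its onset. E2f1 was lower in colon by a difference of -1.12 ± 0.10 (limma adjusted p = 6.48e-06), Mcm4 by -0.82 ± 0.13 (adjusted p = 0.000292), Mcm3 by -0.70 ± 0.13 (adjusted p = 0.000875) and Cdk2, the kinase of S phase, by -0.60 ± 0.13 (adjusted p = 0.00205). In each of these the 3 lung libraries lay above the 3 colon libraries. For Mcm3 the difference was -0.29 and no longer passed after quantile normalisation, and it was -0.52 without passing among the RECTAS libraries. Of the 4, E2f1 and Mcm4 were the 2 that passed after quantile normalisation. The colon and lung levels of Mcm2, Mcm6 and Mcm7, of the licensing inhibitor Gmnn (geminin), of the GINS helicase subunit Gins2, of Rrm1 (the large subunit of ribonucleotide reductase) and of Pcna did not differ past the threshold, with differences between -0.26 and 0.12.

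The remaining licensing and S phase genes were higher in colon. Cdt1 and Cdc6, which load the helicase, differed by 0.72 and 0.38, Cdc45, its cofactor, by 0.44, and Mcm5 by 0.57. The nucleotide genes Tyms (thymidylate synthase), Tk1 (thymidine kinase) and Rrm2 (the small subunit of ribonucleotide reductase) differed by 1.22, 1.13 and 0.79, and Uhrf1, which restores DNA methylation behind the fork, by 1.19. The E cyclins Ccne1 and Ccne2 differed by 0.77 and 0.51.

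**Figure D2:**
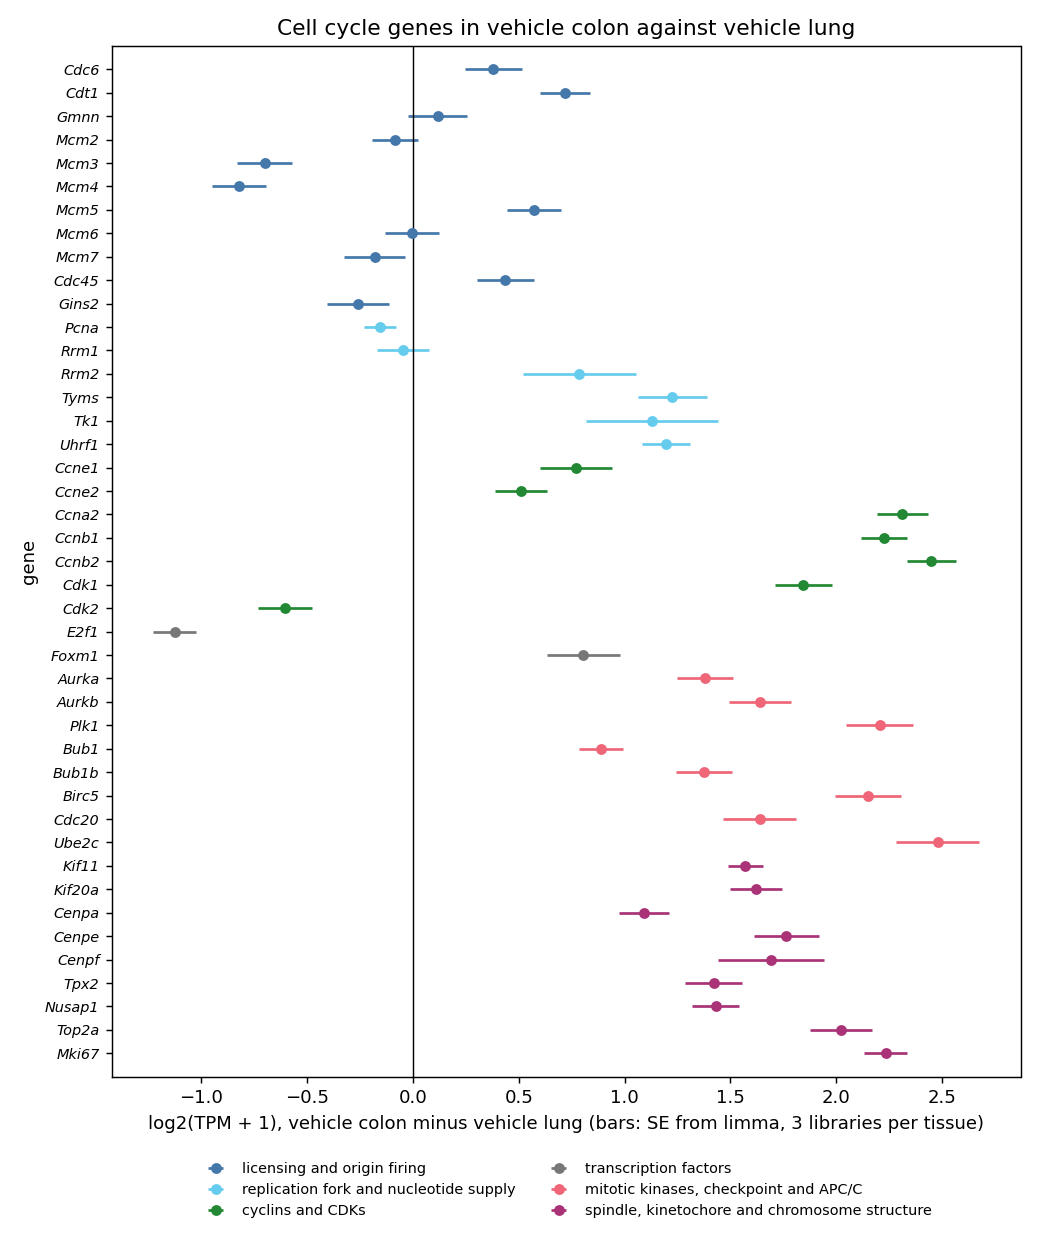
Difference of each cell cycle gene between vehicle colon and vehicle lung on the log2(TPM + 1) scale (points, with SE from limma, 3 libraries per tissue), coloured by role. All 17 genes of the kinase, checkpoint, spindle and chromosome classes lie to the right of 0, and E2f1, Mcm4, Mcm3 and Cdk2 lie furthest to the left.

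Summing TPM over the 17 mitotic genes and over the 11 licensing genes gave each library a ratio of the one sum to the other. In colon it was 2.28, 2.32 and 2.98 under vehicle and 2.27, 1.99 and 2.02 under RECTAS. In lung it was 0.598, 0.589 and 0.524 under vehicle and 0.410, 0.558 and 0.859 under RECTAS. In liver it was 0.634, 0.475 and 0.442 under vehicle and 0.384, 0.552 and 1.18 under RECTAS. Every colon library lay above every library of lung and liver, and lung and liver overlapped. The ratio does not depend on how a library is scaled as a whole.

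**Figure D3:**
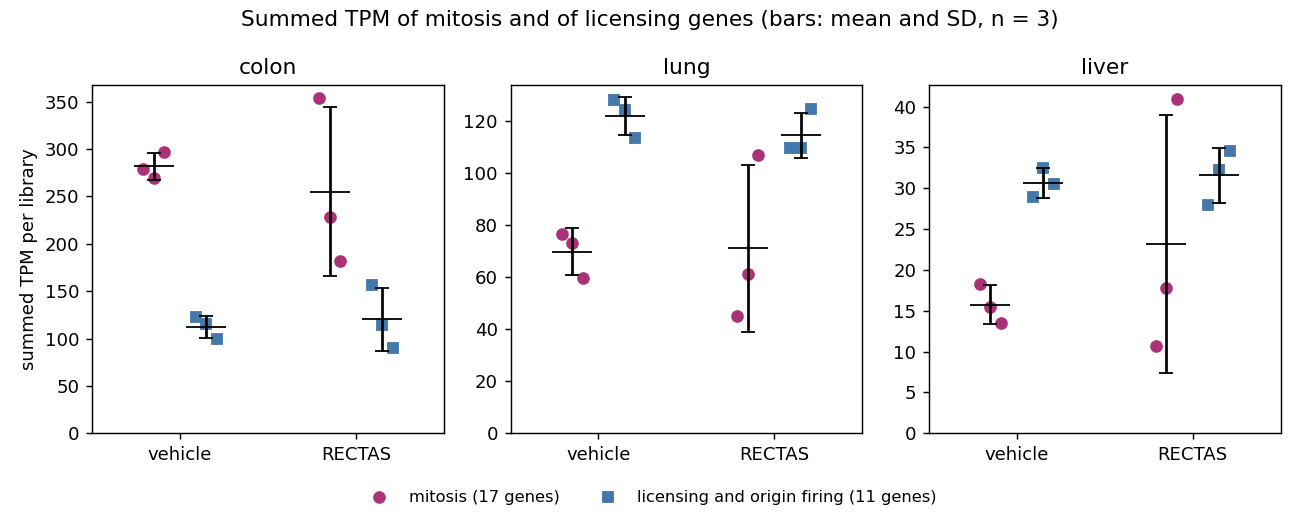
Summed TPM of the 17 mitotic genes and of the 11 licensing genes in each library (points, with mean and SD, n = 3) by tissue and treatment. In colon the mitotic sum stands above the licensing sum in all 6 libraries, in lung it stands below in all 6, and in liver it stands below in all but RECTAS 3.

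Between vehicle colon and vehicle liver, 42 of the 43 genes were higher in colon, against 63.8% of all genes, and none was lower, against 16.1%. The median difference was 2.22, that of all genes 0.68. The largest differences were 4.49 ± 0.20 for Ube2c (limma adjusted p = 4.27e-08), 4.22 ± 0.15 for Top2a (adjusted p = 9.44e-09) and 4.01 ± 0.12 for Ccna2 (adjusted p = 3.83e-09), at 39.3, 36.2 and 36.3 times the liver TPM. Among those that passed, E2f1 and Cdk2 had the smallest, 0.49 ± 0.10 (adjusted p = 0.00149) and 0.87 ± 0.13 (adjusted p = 0.000162). Scaling by median ratios instead moved the median of all genes from 0.68 to 0.12. With that scaling neither E2f1, at 0.036, nor Cdk2, at 0.15, passed, and after quantile normalisation E2f1 changed sign to -0.33.

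Tk1, the thymidine salvage kinase, was the exception. It stood at 57.8, 34.0 and 19.96 TPM in vehicle liver, 28.9, 21.9 and 24.9 TPM in colon and 11.6, 11.9 and 9.44 TPM in lung, and was the highest cell cycle gene of vehicle liver. Its difference of colon from liver was -0.43 ± 0.31 (limma adjusted p = 0.233), and colon and liver overlapped. It moved to -0.80 and passed without liver vehicle 3, passed with -1.21 after median ratio scaling and -1.03 after quantile normalisation, and was 0.14 between the RECTAS libraries. Lung was lower than liver by -1.56 ± 0.31 (adjusted p = 0.00107), with no overlap.

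Between vehicle lung and vehicle liver, 39 of 43 genes were higher in lung, against 74.5% of all genes, and 1, Tk1, was lower, against 13.5%. The count depended on scaling: after quantile normalisation 10 were higher and 11 lower, and 24 of the 43 differences were above 0. The median of the 43 was 1.42 as deposited, 0.82 after median ratio scaling and 0.049 after quantile normalisation, while that of all genes went from 1.10 to 0.28 and 0.0037. Mcm4, Mcm6 and Mcm3 had the largest differences, 2.61 ± 0.13, 2.36 ± 0.13 and 2.23 ± 0.13 (limma adjusted p = 6.52e-08, 1.09e-07 and 1.87e-07). Lung and liver did not differ past the threshold for Tyms, Rrm2 and Ccne1, at 0.17, 0.25 and 0.25, and Tyms and Ccne1 changed sign under both scalings.

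The lowest cell cycle gene of vehicle liver was Cdc6, at 0.190, 0.0600 and 0.120 TPM, and that of lung was Cenpe, at 1.0, 1.49 and 0.740 TPM. In liver 24 of the 43 genes passed the filter on low values and 19 did not. The 19 were 7 spindle and chromosome genes, 4 mitotic kinase and checkpoint genes, 3 cyclins (Ccna2, Ccnb1 and Ccnb2), both transcription factors, 2 licensing genes (Cdc6 and Cdc45) and Uhrf1.

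The proximal promoters of these genes are shown because the members moved together by class between colon and lung, and because known elements divide them. RefSeq windows of 300 bases on GRCm38.p6, from 250 before to 50 after the start site, matched 34 of the 43 genes, with 36 windows because Mcm7 and Uhrf1 have 2 each. The windows were searched on both strands for the cell cycle homology element, CHR, whose letters are TTTGAA or in a variant form TTCGAA, bound by the MuvB complex in mitotic genes, for E2F sites, written TTCCCGC and in variant forms TTCGCGC and by another letter choice TTGGCGC, and for the CCAAT box, bound by NF-Y. Matches can share bases, as CCAAT boxes on opposite strands or an E2F match and a CCAAT box can. In the sequences, capitals mark every match, read from 5′ to 3′ on the strand of the gene. The 5 were taken by the smallest unadjusted p under RECTAS within each motif class. They were Rrm1 and Cdt1 for E2F, Aurka and Ube2c for CHR, and Rrm2 for CCAAT among genes not yet taken.
Rrm1: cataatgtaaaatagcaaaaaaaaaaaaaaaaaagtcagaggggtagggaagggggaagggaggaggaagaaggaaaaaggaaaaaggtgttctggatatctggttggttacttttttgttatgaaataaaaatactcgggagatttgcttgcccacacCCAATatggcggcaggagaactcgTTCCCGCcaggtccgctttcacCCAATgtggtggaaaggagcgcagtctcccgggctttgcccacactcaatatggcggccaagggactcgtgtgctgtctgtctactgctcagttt
Cdt1: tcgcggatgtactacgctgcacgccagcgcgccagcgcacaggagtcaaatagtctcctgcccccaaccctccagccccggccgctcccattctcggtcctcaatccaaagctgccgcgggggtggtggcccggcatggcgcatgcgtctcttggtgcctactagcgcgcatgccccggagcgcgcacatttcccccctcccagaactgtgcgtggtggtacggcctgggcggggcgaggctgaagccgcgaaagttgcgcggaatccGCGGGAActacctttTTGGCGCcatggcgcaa
Aurka: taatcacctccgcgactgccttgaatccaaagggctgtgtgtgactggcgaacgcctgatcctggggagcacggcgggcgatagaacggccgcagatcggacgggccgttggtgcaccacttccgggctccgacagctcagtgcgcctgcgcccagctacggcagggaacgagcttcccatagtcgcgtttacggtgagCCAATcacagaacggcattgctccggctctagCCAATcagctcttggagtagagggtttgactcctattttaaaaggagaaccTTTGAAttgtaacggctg
Ube2c: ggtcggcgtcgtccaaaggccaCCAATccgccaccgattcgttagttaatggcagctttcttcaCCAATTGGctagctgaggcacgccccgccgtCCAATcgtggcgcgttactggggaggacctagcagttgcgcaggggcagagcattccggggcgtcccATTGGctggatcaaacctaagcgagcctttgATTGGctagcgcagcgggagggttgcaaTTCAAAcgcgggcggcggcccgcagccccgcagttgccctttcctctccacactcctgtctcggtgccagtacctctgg
Rrm2: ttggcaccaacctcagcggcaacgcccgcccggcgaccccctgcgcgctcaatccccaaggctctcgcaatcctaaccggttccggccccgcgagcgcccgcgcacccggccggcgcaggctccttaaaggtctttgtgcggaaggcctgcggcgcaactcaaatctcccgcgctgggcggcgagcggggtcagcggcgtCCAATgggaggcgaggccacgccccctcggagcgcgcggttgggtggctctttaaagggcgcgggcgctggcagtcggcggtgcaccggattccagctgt

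Rrm1 lies at chr7:102441445-102441744 on the plus strand, with its E2F match starting at base -67 from the start site between CCAAT boxes at -91 and -45. Cdt1, at chr8:122567765-122568064 on the plus strand, has E2F matches just behind the start, at bases 19 and 34, the former on the opposite strand, and no CCAAT box. Aurka, at chr2:172370521-172370820 on the minus strand, has a CHR at base 33 and CCAAT boxes at -51 and -19. Ube2c, at chr2:164769679-164769978 on the plus strand, has a CHR on the opposite strand at -29 and 6 CCAAT boxes, of which those at -186 and -183 overlap. Rrm2, at chr12:24708004-24708303 on the plus strand, has 1 CCAAT box at -50.

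A CHR was present in 44.4% of the member windows and in 19.2% of all 32851 windows, an E2F match in 38.9% and 8.07%, and a CCAAT box in 77.8% and 37.4%. Among the 17 windows of genes of G2 and mitosis, 13 held a CHR and 3 an E2F match. Among the 19 windows of genes of S phase and its onset, 3 held a CHR and 11 an E2F match. All 16 member windows with a CHR also held a CCAAT box, a pair present in 7.52% of all windows. The 13 genes with a CHR and no E2F match had a median colon minus lung difference of 1.57, and 12 of them were above 0. The 9 with an E2F match and no CHR had a median of 0.38, and 5 were above 0. The 9 with neither had a median of 1.13, and 7 were above 0. These are counts of letters in 1 window per start site, given as a description.

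RECTAS raised or lowered none of the 43 genes past the threshold in any tissue. In colon 0 of 14282 genes passed (0%). In lung 1 of 15699 passed (0.00637%) and in liver 2 of 11944 (0.0167%), neither of which held a cell cycle gene. At an unadjusted p under 0.05, limma counted 0 cell cycle genes in each tissue, where 43, 43 and 24 were tested. At that level 0.805% of all genes were higher and 0.812% lower in colon, 10.7% and 1.88% in lung, and 3.59% and 8.03% in liver. No cell cycle gene passed under any other pseudocount, filter, scaling, block or left-out library either.

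The differences were small beside their error. In colon they ran from -0.29 to 0.24 with a median SE of 0.23, and 15 of 43 were above 0, against 57.2% of all genes. In lung they ran from -0.24 to 0.32 with a median SE of 0.20, and 13 of 43 were above 0, against 65.4%. In liver they ran from -0.68 to 0.76 with a median SE of 0.18, and 15 of the 24 that passed the filter were above 0, against 40% of all genes. The medians were -0.084, -0.024 and 0.10, and those of all genes 0.018, 0.058 and -0.038. A change of the size of these errors would not have been detectable with 3 libraries per group.

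**Figure D4:**
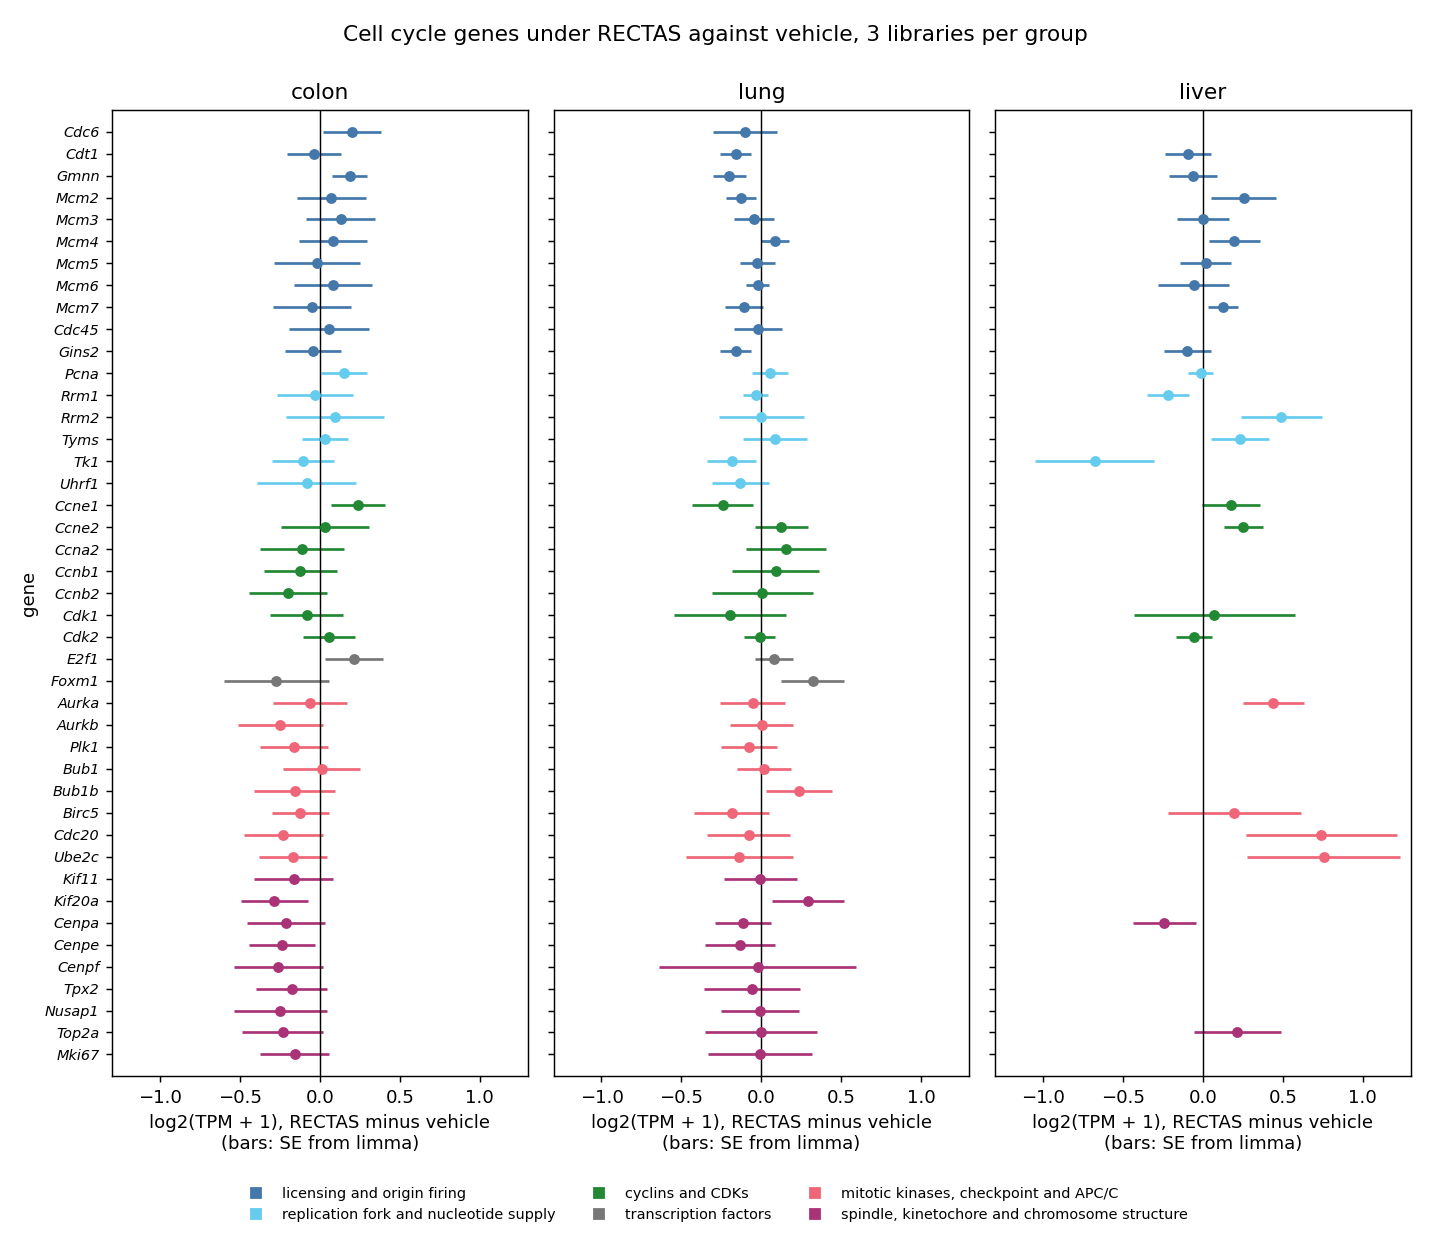
Difference of each cell cycle gene between RECTAS and vehicle on the log2(TPM + 1) scale in colon, lung and liver (points, with SE from limma, 3 libraries per group), coloured by role. Error bars cross or come near 0 for nearly every gene, and liver shows only the 24 genes that passed the filter.

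In colon Gmnn, the inhibitor that keeps origins from being licensed again, came first by p. It stood at 20.6, 20.8 and 17.05 TPM under vehicle and 23.9, 21.4 and 21.5 TPM under RECTAS, a difference of 0.19 ± 0.11 (limma adjusted p = 0.99992). It was the only colon member whose groups did not overlap, where 3.43% of all genes lay apart in that direction and 2.01% in the other. Ccne1 stood at 2.71, 3.35 and 2.92 TPM and then 4.76, 3.12 and 3.38 TPM, a difference of 0.24 ± 0.17.

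E2f1 in colon stood at 2.02, 1.55 and 1.74 TPM under vehicle and 2.92, 2.02 and 1.78 TPM under RECTAS. Kif20a, a motor of cytokinesis, stood at 8.97, 9.01 and 7.76 TPM and then 9.18, 7.17 and 4.81 TPM, and Cenpe, which carries chromosomes to the spindle equator, at 6.56, 5.13 and 6.33 TPM and then 5.78, 5.96 and 3.41 TPM. In all 3 the groups overlapped, and for both mitotic genes the lowest value was that of RECTAS 3. By role, 7 of the 11 licensing genes but 0 of the 9 spindle and chromosome genes and 1 of the 8 mitotic kinase and anaphase genes had means above vehicle, none of them past the test.

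In lung the 5 with the smallest p were Gmnn, Cdt1, Foxm1, Gins2 and Mcm2. Gmnn stood at 17.5, 16.5 and 19.7 TPM under vehicle and 14.4, 14.47 and 17.6 TPM under RECTAS, a difference of -0.20 ± 0.10 (limma adjusted p = 0.474), with overlap. Cdt1 stood at 3.86, 3.65 and 3.41 TPM and then 3.11, 3.02 and 3.32 TPM, a difference of -0.16 ± 0.10. It was the only lung member whose groups did not overlap, where 3.18% of all genes lay apart in that direction.

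Foxm1 in lung stood at 2.58, 3.31 and 1.86 TPM under vehicle and 2.76, 3.26 and 4.37 TPM under RECTAS, a difference of 0.32 ± 0.20 with overlap. Gins2 stood at 15.2, 14.4 and 12.0 TPM and then 11.7, 12.3 and 12.9 TPM, and Mcm2 at 8.33, 7.18 and 7.30 TPM and then 6.63, 6.57 and 7.43 TPM. Of the 11 licensing genes, 10 had lung means below vehicle, none past the test.

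In liver Aurka came first by p, at 1.25, 1.0 and 1.26 TPM under vehicle and 1.21, 2.28 and 2.52 TPM under RECTAS, a difference of 0.44 ± 0.19 (limma adjusted p = 0.444) with overlap through RECTAS 1. Ccne2, the companion of Ccne1 at S phase entry, stood at 0.810, 1.0 and 0.740 TPM and then 1.28, 1.3 and 1.04 TPM, a difference of 0.25 ± 0.12. It was the only liver member whose groups did not overlap, where 5.75% of all genes lay apart in that direction and 13% in the other.

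The subunits of ribonucleotide reductase differed in sign in liver. Rrm2 stood at 2.13, 4.16 and 4.38 TPM under vehicle and 4.08, 4.91 and 7.02 TPM under RECTAS (0.49 ± 0.25), and Rrm1 at 6.38, 5.65 and 6.29 TPM and then 4.27, 5.04 and 6.15 TPM (-0.22 ± 0.13). Tk1 stood at 57.8, 34.0 and 19.96 TPM and then 21.8, 15.6 and 26.9 TPM (-0.68 ± 0.37). All 3 overlapped, and the vehicle mean of Tk1 rested largely on vehicle 1.

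In colon the SD of log2 values was larger under RECTAS than under vehicle for 42 of 43 genes (97.7%, against 51.8% of all genes), with a median SD of 0.46 against 0.12. In lung it was larger for 35 of 43 (81.4%, against 60.5%), with medians of 0.30 and 0.17, and in liver for 15 of 24 (62.5%, against 40.0%), with medians of 0.27 and 0.19. No test was made of this difference in spread, since with 3 libraries per group the genes of 1 library move together and are not independent.

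Single libraries carried it. In colon, RECTAS 1 was the highest of all 6 libraries for 42 of 43 genes, against 19.7% of all genes, with a median of 0.48 above its group mean. RECTAS 3 was the lowest of the 6 for 34, against 30.6% of all genes, with a median of -0.40 from its group mean. The summed TPM of the 43 genes was 683, 660 and 659 under vehicle and 883, 587 and 489 under RECTAS. The vehicle libraries lay close together, and the RECTAS libraries lay on both sides of them. The exception to RECTAS 1 was Cenpe.

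The same libraries show in single genes of each role. Mki67 stood at 23.6, 15.7 and 12.4 TPM in the colon RECTAS libraries, Top2a at 46.5, 28.6 and 21.3 TPM, Cdk1 at 47.4, 25.9 and 25.9 TPM and Ccnb1 at 17.5, 10.4 and 8.93 TPM. Pcna stood at 84.4, 61.8 and 58.4 TPM and Mcm2 at 10.8, 6.79 and 5.69 TPM. Replication and mitosis genes thus shared the high library, RECTAS 1.

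In lung, RECTAS 3 was the highest of the 6 libraries for 30 of 43 genes, against 20.7% of all genes, and RECTAS 1 was the lowest for 25, against 10.8%. Mki67 stood at 1.80, 2.58 and 6.17 TPM in the lung RECTAS libraries, Top2a at 4.92, 6.92 and 15.1 TPM, Cdk1 at 4.15, 7.15 and 13.3 TPM and Ccnb1 at 1.12, 2.29 and 3.58 TPM. Pcna stood at 65.7, 63.7 and 83.0 TPM, Mcm2 at 6.63, 6.57 and 7.43 TPM, Ccne1 at 1.20, 0.550 and 1.25 TPM and E2f1 at 5.39, 4.59 and 6.22 TPM. RECTAS 3 was thus furthest from the others in the mitotic genes and close to them in Mcm2. It was also the highest for Pcna. For Ccne1 it lay beside RECTAS 1, with RECTAS 2 below both.

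In liver, RECTAS 3 was the highest of the 6 libraries for 14 of the 24 genes tested, against 14.97% of all genes. Mki67 stood at 0.290, 0.440 and 1.21 TPM in the liver RECTAS libraries, Top2a at 0.720, 1.03 and 2.51 TPM, Cdk1 at 1.04, 1.53 and 7.78 TPM and Ccnb1 at 0.170, 0.760 and 3.23 TPM. Pcna stood at 19.1, 20.6 and 21.2 TPM, Mcm2 at 0.990, 2.40 and 1.61 TPM, Ccne1 at 1.07, 1.31 and 1.28 TPM and E2f1 at 0.800, 0.780 and 1.23 TPM. The rise in RECTAS 3 lay in the mitotic genes, whose sum was 41.0 TPM there and 10.7 to 18.3 TPM in the other 5 liver libraries, while Pcna lay beside the 19.7 to 21.1 TPM of the vehicle libraries.

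**Figure D5:**
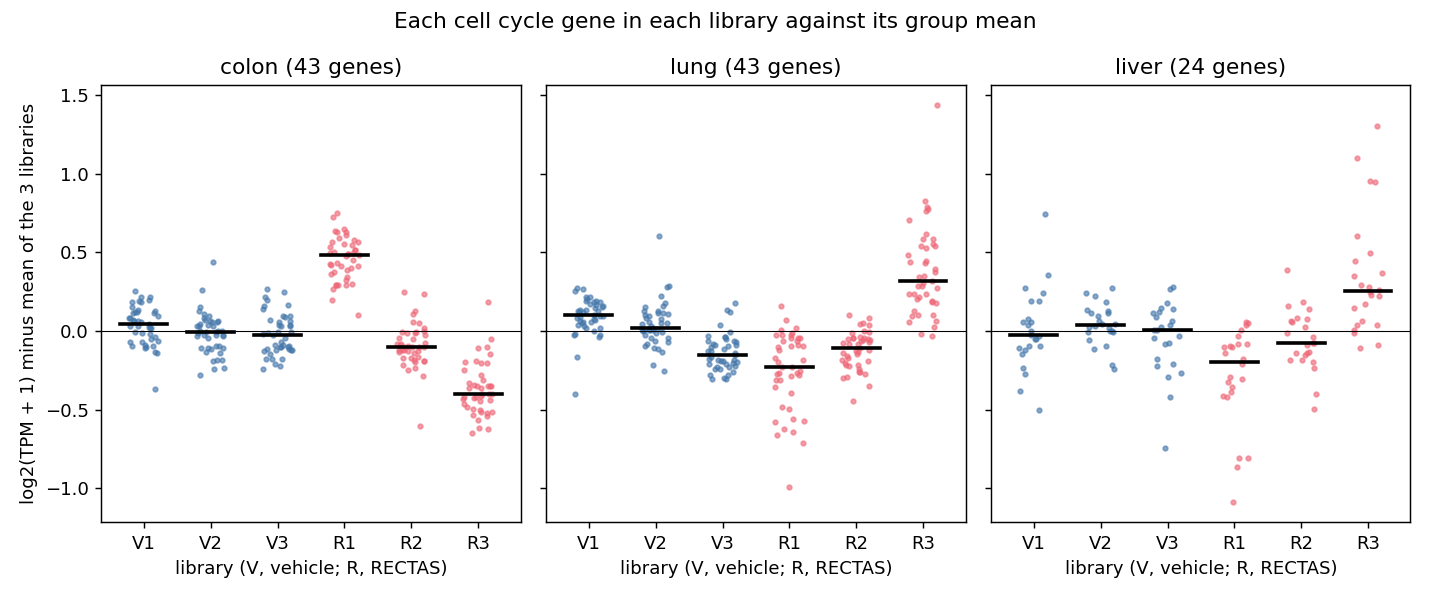
Each cell cycle gene in each library minus the mean of its group of 3 on the log2(TPM + 1) scale, by tissue (V, vehicle; R, RECTAS). In colon the genes of RECTAS 1 lie above 0 and most of RECTAS 3 below it, in lung and liver those of RECTAS 3 lie mostly above, and the vehicle libraries of colon lie close to 0.

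The direction of the set moved with these libraries. Colon RECTAS 1 and 3, lung RECTAS 1 and 3 and liver RECTAS 3 were already known to be highest or lowest for most genes tested. Leaving any of them out was thus bound to move the differences the other way, and the counts are a description. Without colon RECTAS 1, 4 of 43 genes lay above vehicle, against 51.5% of all genes, with a median of -0.33. In that fit 17 of the 43 were lower at an unadjusted p under 0.05 in limma, against 141 of all 14033 genes. Colon RECTAS 1 was the highest library for 42 of the 43, so leaving it out was bound to lower them. Genes of 1 library also move together, so this count is a description and not a test of the set. Without colon RECTAS 3, 35 lay above, against 67.0% of all genes, with a median of 0.10. Without lung RECTAS 3, 5 of 41 lay above, against 67.8% of all genes, with a median of -0.19. Without lung RECTAS 1, 32 of 43 lay above, against 63.8%, with a median of 0.10. Leaving out lung vehicle 1 left 22 of 41 above, against 67.4% of all genes, and leaving out lung RECTAS 2 left 22 of 43, against 61.8%. Without liver RECTAS 3, 9 of 23 lay above, with a median of -0.086, a share close to the 39.5% of all genes. No adjusted p of a cell cycle gene fell under the threshold in any of these.

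Markers of other cells were read beside these libraries. In colon vehicle 1, 2 and 3 and then RECTAS 1, 2 and 3, the summed TPM of 8 crypt stem cell markers was 82.4, 60.8, 82.0, 88.5, 82.1 and 61.7. That of 6 mature colonocyte markers was 9313, 28133, 18351, 15673, 13347 and 28632, and that of 6 B cell markers was 0.870, 0.890, 1.43, 1.26, 2.47 and 19.97. The goblet cell sum (6 markers) was 14319, 9533, 13630, 17080, 11744 and 13609, highest in RECTAS 1. The smooth muscle sum (6 markers) was 5396, 2022, 1906, 3234, 3236 and 1717. Colon RECTAS 3 and vehicle 2 had the lowest crypt sums and the highest colonocyte sums. The part of these markers in the cell cycle levels was not tested.

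In lung RECTAS 3 the 7 thymocyte markers summed to 3.45 TPM, within the 2.42 to 4.36 TPM of the other lung libraries. Rag1, 1 of these markers, stood at or below 0.0300 TPM in all 6. The 6 macrophage markers were highest of all lung libraries there, at 143 TPM against 120 to 134 TPM. The 6 alveolar type 2 markers were highest there too, at 44043 TPM against 35534 to 42557 TPM. In liver RECTAS 3 the macrophage sum was also the highest, at 309.5 TPM against 175 to 260 TPM. So was the sum of the 7 erythroid markers, at 621 TPM against 308 to 553 TPM. Globin genes made up most of that sum, with liver RECTAS means of 96.5 (Hba-a1), 147 (Hba-a2), 182 (Hbb-bs) and 27.4 TPM (Hbb-bt). The erythroid marker Alas2 did not share the rise. All its liver RECTAS values lay below all vehicle values (-0.62 ± 0.28), and Klf1 had -0.29 ± 0.17 with overlap. The thymocyte sum was highest in liver RECTAS 3 too, at 3.81 TPM against 1.15 to 2.23 TPM. Most of that sum was 1 gene, Dntt, with a liver RECTAS mean of 2.30 TPM where the sum had a mean of 2.57 TPM. Of the 7 thymocyte markers, 3 were at 0 TPM in every liver RECTAS library. The T cell sum was 6.73 TPM in liver RECTAS 3, against 3.15 to 5.26 TPM. The part of these markers in the levels of the cell cycle genes was not tested.

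Whether RECTAS acted differently between tissues was tested as an interaction over all 18 libraries. All 43 genes entered, among them the 19 that did not pass the filter in liver. Kif20a, 1 of these, had a vehicle liver mean of 0.5 TPM, a level at which changes appear smaller than they are. None of the 43 genes passed, where 0.0114% of 17537 genes did for colon against lung, 0.0285% for colon against liver and 0.0228% for lung against liver. At an unadjusted p under 0.05 limma also counted 0 of the 43 in each, where 1.03% of all genes were higher and 2.19% lower for colon against lung, 3.81% and 1.56% for colon against liver, and 7.28% and 1.7% for lung against liver. The smallest were Gmnn for colon against lung, 0.39 ± 0.18 (limma adjusted p = 1), and Ccne1, 0.48 ± 0.25. For colon against liver they were Cdc20, -0.97 ± 0.56 (adjusted p = 0.993), and Kif20a, -0.71 ± 0.43, and for lung against liver Ccne1, -0.42 ± 0.25 (adjusted p = 0.687), and Aurka, -0.50 ± 0.32.

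Further genes of the pathway were read from lists of related genes. Of 7 CDK inhibitors, 6 were tested in colon, 7 in lung and 5 in liver, and 0 passed in each tissue. At an unadjusted p under 0.05 limma counted 0 in colon, 2 higher in lung and 1 higher in liver, where 10.7% and 3.59% of all genes were higher at that level. The p53 target Cdkn1a (p21) stood at 1.70, 1.80 and 2.15 TPM in vehicle liver and 3.96, 4.88 and 5.02 TPM under RECTAS, a difference of 0.96 ± 0.12 that did not pass over all genes (limma adjusted p = 0.116). It stood at 34.2, 38.0 and 29.7 TPM in vehicle lung and 45.2, 70.3 and 57.3 TPM under RECTAS, a difference of 0.73 ± 0.17 (adjusted p = 0.267). In colon it stood at 156, 209 and 183 TPM and then 189, 179 and 204 TPM. The groups did not overlap in liver and lung, where 5.75% and 16.1% of all genes lay apart in that direction, and overlapped in colon. In 1 fit of all 18 libraries the liver difference passed (adjusted p = 0.00529) and the lung difference did not (adjusted p = 0.0552).

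The G1 cyclins, which answer to growth signals, did not pass either. Ccnd1 (cyclin D1) stood at 25.5, 67.5 and 73.7 TPM in vehicle liver and 75.4, 70.9 and 93.2 TPM under RECTAS. Vehicle 1 lay far below the other libraries, and the groups overlapped. Ccnd2 and Ccnd3 in lung had differences of 0.21 ± 0.093 and 0.17 ± 0.069, with groups that did not overlap (limma adjusted p = 0.418 and 0.387). Of all lung genes, 16.1% lay apart in that direction. All 5 G1 cyclins and partner CDKs were tested in each tissue and 0 passed in limma. Ccnd3 in lung was the 1 with an unadjusted p under 0.05, a level at which 10.7% of all genes were higher there.

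Among 17 genes of the RB, E2F and DREAM regulators, 16 were tested in colon, 15 in lung and 13 in liver, and 0 passed in each tissue. At an unadjusted p under 0.05 limma counted 0 in colon, 1 higher in lung and 3 higher in liver, against 10.7% and 3.59% of all genes. RECTAS values lay above all vehicle values for E2f5 and E2f6 in lung and for E2f3, E2f5 and E2f6 in liver, where 16.1% and 5.75% of all genes lay apart in that direction. They lay below all vehicle values for Rb1 in liver, where 13% of all genes did. E2f6 in liver stood at 7.36, 7.00 and 8.40 TPM under vehicle and 9.80, 9.65 and 9.66 TPM under RECTAS (0.32 ± 0.092, limma adjusted p = 0.302). E2f5 in liver stood at 4.30, 4.13 and 4.68 TPM and then 5.56, 5.48 and 5.21 TPM (0.26 ± 0.090, adjusted p = 0.378). In colon the 2 DREAM genes with the smallest p were Lin52, at 0.19 ± 0.14, and Lin37, at 0.12 ± 0.10.

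Of 28 further replication genes, 27 were tested in colon, 25 in lung and 19 in liver, and 0 passed in each tissue. Limma counted 0 in colon and lung at an unadjusted p under 0.05 and, in liver, 1 higher and 2 lower, against 3.59% and 8.03% of all genes. Pola2, a subunit of DNA polymerase alpha, stood at 7.97, 6.86 and 7.11 TPM in vehicle liver and 5.38, 5.03 and 5.66 TPM under RECTAS (-0.39 ± 0.095, limma adjusted p = 0.27), and Pold1, the catalytic subunit of polymerase delta, at 2.02, 2.76 and 2.17 TPM and then 3.36, 2.98 and 3.21 TPM (0.34 ± 0.12). These groups did not overlap, where 13% of all liver genes lay apart downward and 5.75% upward. Rfc5 of the clamp loader had -0.37 ± 0.19 in colon and Chaf1b of the chromatin assembly factor -0.34 ± 0.16 in lung, both with overlap.

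Of 36 further mitosis genes, 36 were tested in colon, 29 in lung and 10 in liver, and 0 passed in each tissue. At an unadjusted p under 0.05 limma counted 0 in colon, 1 lower in lung, against 1.88% of all genes, and 2 higher in liver, against 3.59%. In colon 30 of the 36 had means below vehicle, where 57.2% of all genes lay above it. Cks1b, a CDK subunit, stood at 5.46, 9.21 and 8.71 TPM in vehicle liver and 9.80, 12.9 and 13.6 TPM under RECTAS (0.59 ± 0.20), and the spindle checkpoint gene Mad2l1 at 1.64, 1.62 and 1.59 TPM and then 2.30, 2.01 and 2.90 TPM (0.37 ± 0.13; limma adjusted p = 0.37 for both). In lung Pttg1 (securin), which holds separase inactive, stood at 102, 112 and 102 TPM and then 88.7, 99.4 and 84.2 TPM (-0.21 ± 0.078, adjusted p = 0.354). These groups lay apart, as did 5.75% of all genes upward in liver and 3.18% downward in lung. In vehicle tissue, 30 of the 36 were higher in colon than in lung and 2 lower, against 24.7% and 51% of all genes.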

How the data were processed

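Per the labels' protocols, RNA was extracted with TRIzol and prepared as TruSeq stranded mRNA libraries. The authors deposited TPM per gene and library, used here as deposited. Per the submitters' processing notes, which state no role or order, the tools were HISAT2 2.2.0 and RSEM 1.3.0 and the build was GRCm38. Which annotation release and filters were applied is not given in the sources used here. TPM sums to the same total in every library, so read depth is unknown, and abundant genes that rise lower all others. The 43 genes were matched by symbol, with no duplicate among them (0). Gene positions come from GENCODE M21 and promoters from RefSeq. No pair of libraries was identical (0).

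Groups came from the labels. Genes that reached 1 TPM in 3 or more libraries entered, as log2(TPM + 1), a test with limma 3.58.1 in R 4.3.3 (trend, two-sided), with Benjamini-Hochberg adjustment over all genes at 0.05. RECTAS was compared with vehicle within each tissue, vehicle tissues were compared in 1 fit of 9 libraries, and interactions were tested over 18. Lists are described by counts and medians, with no test of their own. The procedure was tested on simulated data. Python 3.11.15, pandas 2.3.3 and matplotlib 3.10.9 were used for values and figures.

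Named genes were 8 genes over the roles with values in every library, per RECTAS contrast every gene past the threshold and the 5 with the smallest p, per interaction 2, per vehicle contrast the 3 largest and the 3 smallest or opposite differences, and per further list 2, plus Cdkn1a. Alternatives were pseudocounts of 0.1 and 5, no filter, a filter of 5 TPM, median ratio scaling, quantile normalisation, the replicate number as a block, 1 fit of all 18 libraries, RECTAS in place of vehicle libraries, and leaving out each library. The members, lists and tests were chosen with earlier results of these data known.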

Additional observations from a re-analysis of the deposited data

How the results depend on the processing

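No cell cycle gene passed the threshold under RECTAS with any alternative, and none passed in an interaction. Counts of all genes called were small and moved. In colon 0 passed, but 2 did with a pseudocount of 0.1 and in 1 fit of all 18 libraries, and 0 to 1 without single libraries. In lung 1 passed, 37 in 1 fit of all 18 libraries and 0 to 4 without single libraries. In liver 2 passed, 7 with a filter of 5 TPM, 5 with either scaling, 134 in 1 fit of all 18 libraries and 0 to 6 without single libraries. Liver Cdkn1a (0.96) was called in that fit. Colon Cdkn1a ran from -0.040 without vehicle 1 to 0.17 without vehicle 2, where Ccnd3 turned to -0.054.

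For the interaction of colon against lung, 2 genes passed, 1 with a pseudocount of 0.1 or median ratio scaling, 4 with a pseudocount of 5, 26 with no filter, 0 with a filter of 5 TPM or quantile normalisation and 1 to 9 without single libraries. For colon against liver 5 passed, 1 with a pseudocount of 0.1 or quantile normalisation, 10 with a pseudocount of 5, 13 with no filter and 0 to 7 without single libraries. For lung against liver 4 passed, 0 with a pseudocount of 0.1, a filter of 5 TPM or quantile normalisation, 26 with a pseudocount of 5, 32 with no filter, 2 with median ratio scaling and 0 to 11 without single libraries.

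Tissue differences of the 43 genes depended on scaling. In colon against lung, 2 were lower after quantile normalisation instead of 4. In colon against liver, 1 was lower with median ratio scaling, 2 with quantile normalisation, and 0 to 1 without single libraries, and E2f1 turned to -0.33 after quantile normalisation and Tk1 to 0.14 among the RECTAS libraries. In lung against liver, 2 were lower after median ratio scaling, and 10 were higher and 11 lower after quantile normalisation. There Ccne1 turned to -0.33, -1.11 and, among the RECTAS libraries, -0.17, and Tyms to -0.83 and -1.16. The cause was not tested.

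Whether the replicate numbers pair libraries across tissues could not be settled, because libraries of 1 animal need not share deviations between tissues. Across tissues of 1 treatment, same-numbered libraries correlated at -0.085 to 0.12 in their deviations from the group means, and 1 of 18 pairs was over 0.1. Within a tissue, vehicle and RECTAS libraries of the same number correlated at -0.35 to 0.49, with 3 of 9 pairs over 0.1. Those of different number ran from -0.48 to 0.48, with 5 of 18 over 0.1. In lung the same-numbered pairs 1 and 3 stood at 0.49 and 0.46 and pair 2 at -0.0076, so pairing within lung was left unsettled. The sum of 6 hepatocyte markers in lung rose with the number in both groups. It was 17.6, 467 and 1300 TPM under vehicle and 1.22, 52.9 and 536 TPM under RECTAS. The part of this liver RNA in the lung correlations was not tested. With the replicate block, 0 genes passed in liver, and 0, 3 and 0 in the interactions of colon with lung, colon with liver and lung with liver. The block left all member counts at 0 under RECTAS.

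In each tissue the sign of the median cell cycle difference under RECTAS changed when certain single libraries were left out. With 3 libraries per group, unknown depth and TPM near 1 for most of these genes in liver, small differences could not be resolved.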

Other observations

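Mcm10, a replication initiation factor, was chosen here after its values were seen, because its tissue order differed from that of the other licensing genes. It stood at 43.7, 28.3 and 58.0 TPM in vehicle liver and 24.7, 31.8 and 29.7 TPM under RECTAS, against 5.0, 5.76 and 3.95 TPM in vehicle colon and 1.33, 1.65 and 2.59 TPM in vehicle lung. In liver it thus lay above Mcm2 to Mcm7, whose vehicle values ran from 0.990 to 7.33 TPM. In vehicle colon and lung it lay below all 6 of them. Without exon-level data, which transcript of Mcm10 gave these values was not tested.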
